A study of Rattus norvegicus with 2 samples.

Results

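The genes described here are 7 named modulators of Wnt signalling, Sfrp1, Sfrp2, Sfrp5, Frzb, Wif1, Dkk3 and Fzd2, of 32883 genes counted, in single cells of the female rat hypothalamus. They were taken by symbol from a list made with earlier results of these data known, and no measured value enters the rule. Hypothalamic tissue containing the anteroventral periventricular and arcuate areas was collected from Sprague Dawley females on postnatal day (PND) 29. The Control library came from rats that the labels call intact and that, by the methods, had been given a capsule of sesame oil alone, and the SC300 library from rats that carried a Silastic capsule with 300 µg of estradiol benzoate (EB), an estrogen ester, from PND 0.5. The tissue of 3 rats was pooled for each library, and there was 1 library in each group. The differences below therefore compare 2 libraries, have no replicate check and carry no test, and every interval is an exact 95% counting interval that covers counting error alone.

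Wnt proteins are secreted lipid-modified ligands that signal through Frizzled receptors and the co-receptors Lrp5 and Lrp6, and stabilise beta-catenin in the canonical branch of the pathway. The secreted Frizzled-related proteins Sfrp1, Sfrp2, Sfrp5 and Frzb carry a cysteine-rich domain like that of the receptors and can bind Wnt ligands outside the cell. Wif1 binds Wnt ligands through a domain of its own, and Dkk3 is a divergent secreted member of the Dickkopf family whose effect on the pathway depends on the cell. Fzd2 is a Frizzled receptor that spans the membrane, so the name secreted modulator does not describe it. Tanycytes are the elongated glia that line the floor and lower walls of the third ventricle and reach towards the hypothalamic parenchyma and the capillaries of the median eminence.

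The unique molecular identifiers (UMIs), which count captured transcript molecules, came to 51382276 in the 4296 Control barcodes and 56390355 in the 4379 SC300 barcodes that had at least 200 detected genes. The median cell held 7986 UMIs in Control and 8182 in SC300, and 7 barcode sequences occurred in both libraries. Each barcode was placed in 1 of 15 classes by marker genes, and 307 Control and 337 SC300 barcodes matched no class well enough and were left unassigned. The class read as tanycyte-like held 268 Control and 163 SC300 cells. Of its 9 markers 8 were measured, 6 of them were highest in this class, and their summed level was 4033 CPM in Control and 4641 CPM in SC300, where CPM is a gene's UMIs scaled to a class total of 1000000 UMIs. The transcription factor Rax, a defining tanycyte gene, was at only 4.81 and 6.95 CPM, and Col23a1 was at 0.301 and 0 CPM, so the class rested on other markers, led in level by Crym, Ppp1r1b and Lhx2.

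Over all kept cells, 6 members had UMIs in both libraries. Sfrp2 had 1166 UMIs in Control and 622 in SC300, Frzb 1157 and 731, and Dkk3 1418 and 1053. Sfrp1 had 375 and 705, Wif1 567 and 637, and Fzd2 3243 and 3569. Sfrp5 had 0 UMIs in the 4296 Control cells, with an exact upper bound of 0.0718 CPM. A floor of 3 UMIs, each in its own cell, would be 0.0698% of these cells. In SC300 it had 6 UMIs in 6 cells (0.137%). Those 6 lay in astrocyte-like and neuron-like cells, no more than 2 in any class, and Sfrp5 is not described further.

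The promoters of Sfrp2 and Frzb, the members with the highest tanycyte-like levels in Control, are shown because estradiol acts through receptors that bind the estrogen response element (ERE), a palindrome of the half-sites GGTCA and TGACC. RefSeq promoters on build GRCr8 were matched for 4 members, Sfrp2, Sfrp5, Frzb and Wif1, and not for Sfrp1, Dkk3 and Fzd2. The 250 bases before the annotated start are given 5′ to 3′ along each gene, with half-sites on either strand in capitals. Sfrp2 lies on the plus strand at chr2:171387286-171387535 and Frzb on the minus strand at chr3:85772097-85772346.
Sfrp2: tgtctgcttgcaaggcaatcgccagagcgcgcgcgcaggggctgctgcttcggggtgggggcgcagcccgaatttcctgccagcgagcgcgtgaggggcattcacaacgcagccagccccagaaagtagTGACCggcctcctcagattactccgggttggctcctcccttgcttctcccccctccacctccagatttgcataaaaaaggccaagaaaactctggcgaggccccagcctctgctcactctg
Frzb: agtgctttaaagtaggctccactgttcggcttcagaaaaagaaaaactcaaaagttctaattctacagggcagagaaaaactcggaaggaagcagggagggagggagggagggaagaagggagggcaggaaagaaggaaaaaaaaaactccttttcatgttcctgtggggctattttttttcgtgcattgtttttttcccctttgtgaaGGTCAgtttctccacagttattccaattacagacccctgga
Each held 1 half-site, whose first base lay 121 bases before the start in Sfrp2 and 41 bases before it in Frzb. A half-site was present in 35.4% of all 33469 promoters of this length, so these matches are common letters and describe no binding. The palindrome with any 3 bases between the half-sites, GGTCANNNTGACC, was in 0.0239% of promoters and in none of the 4 members. The letters CTTTGAT or ATCAAAG, a core read by the TCF/LEF factors of the Wnt pathway, were in 3.15% of promoters and in none of the 4 within this window.

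Sfrp2 was lower in SC300 than in Control in tanycyte-like cells and was near the same level in both libraries in oligodendrocyte precursor-like cells. In tanycyte-like cells it had 676 UMIs in Control, 203 CPM (188 to 219), and 123 UMIs in SC300, 47.5 CPM (39.5 to 56.7). The log2 ratio of SC300 over Control was -2.10 (-2.39 to -1.82), a level 4.28-fold lower. In precursor-like cells, which divide and give rise to oligodendrocytes, it had 354 UMIs in Control, 158 CPM (142 to 176), and 403 UMIs in SC300, 168 CPM (152 to 185). The log2 ratio there was 0.09 (-0.12 to 0.30). The intervals of the 2 ratios lay far apart, and the difference between the classes was not tested. Some classes with few Sfrp2 molecules also differed between the libraries, in both directions. Ependymal-like cells had 14 UMIs in Control and 0 in SC300. Newly formed oligodendrocyte-like cells had 4 and 18, a log2 ratio of 2.05 (0.44 to 4.07).

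**Figure D1:**
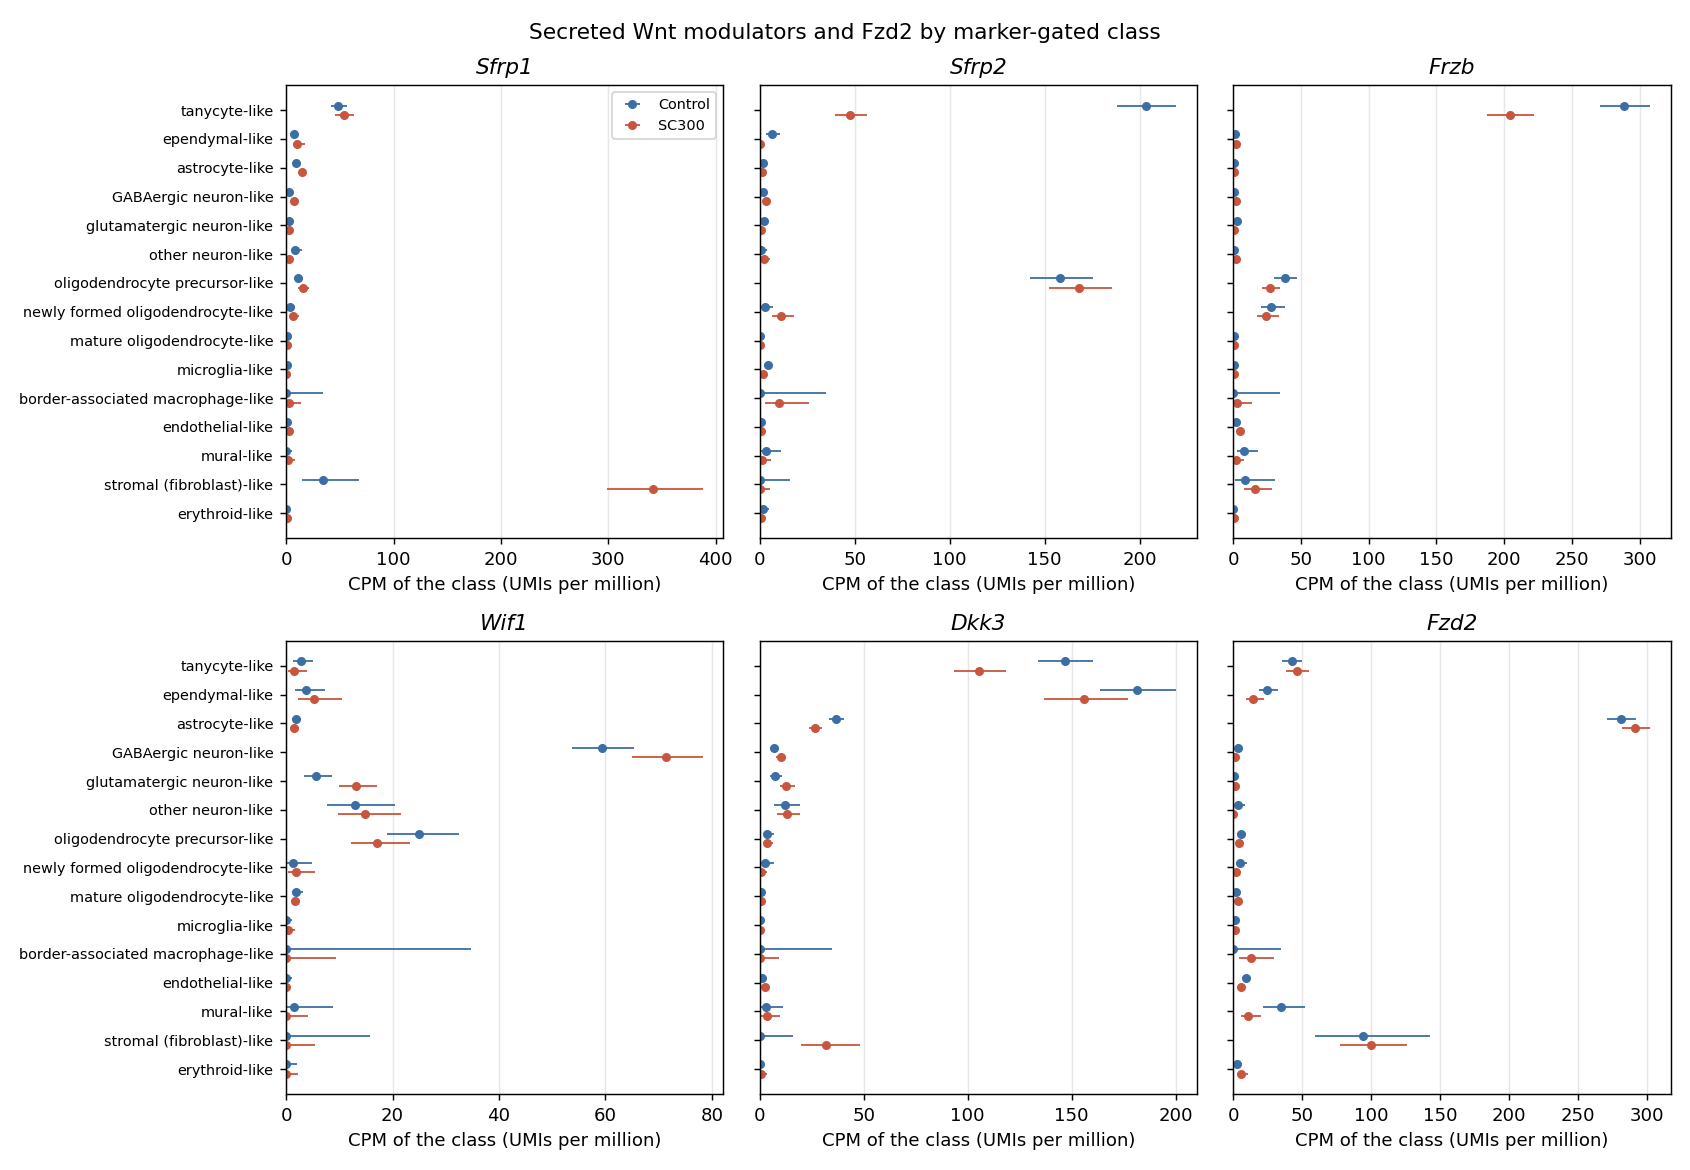
Level of 6 members in each of 15 marker-gated classes, in CPM of the class, with exact 95% Poisson intervals as bars, for Control in blue and SC300 in red. The horizontal scale differs between genes, and Sfrp2 in tanycyte-like cells stands at 203 CPM in Control and 47.5 CPM in SC300.

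The share of cells moved with the level. Tanycyte-like cells with an Sfrp2 UMI numbered 196 of 268 in Control and 65 of 163 in SC300, 73.1% against 39.9%. In precursor-like cells it was found in 212 of 363 and 225 of 351, 58.4% against 64.1%. Thinned to 2000 UMIs a cell, with 9 Control and 2 SC300 cells too shallow to enter, the tanycyte-like shares were 32.4% (26.8 to 38.5) and 12.4% (7.76 to 18.5). The median depth of the class was 10432 UMIs in Control and 11232 in SC300. Microglia-like cells, which should lack the gene, had an Sfrp2 UMI in 2.72% and 1.30% of cells at a Control median of 6986 UMIs, well under both of these classes. The shares of 3.49% and 3.40% in GABAergic neuron-like cells stood close to that level.

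The counts of single cells showed the same. In Control 15 tanycyte-like cells held 8 or more Sfrp2 UMIs and 52 held 4 to 7, and the highest held 20. In SC300 those counts were 2 and 4, and the highest cell held 9. Tanycyte-like cells held 58.0% of all Sfrp2 UMIs of the Control library and 19.8% of those of SC300, while the precursor-like share was 30.4% and 64.8%. The class also made up fewer of the cells in SC300, 3.72% against 6.24%. CPM is scaled to the UMIs of the class, so the number of cells does not itself set it. Whether both libraries held the same kinds of cells within the class was not tested.

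**Figure D2:**
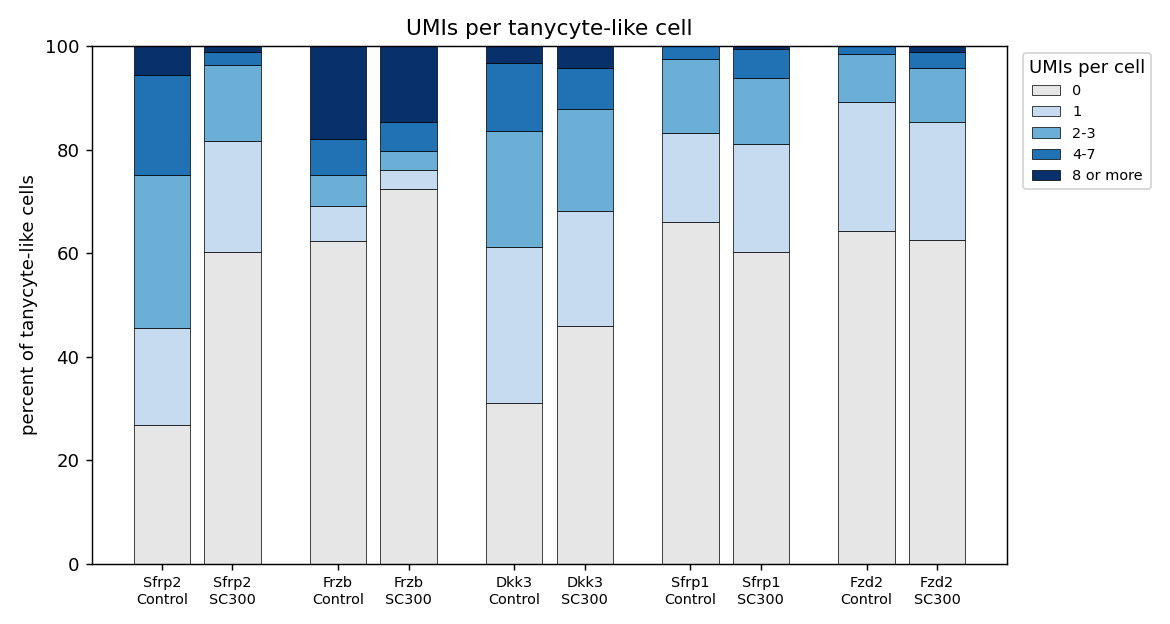
Percent of the 268 Control and 163 SC300 tanycyte-like cells that held 0, 1, 2 to 3, 4 to 7 and 8 or more UMIs of 5 members. For Sfrp2 the part with no UMI is 26.9% in Control and 60.1% in SC300, while for Fzd2 it is 64.2% and 62.6%.

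Most Frzb molecules lay in tanycyte-like cells, 83.0% of them in Control and 72.4% in SC300. It had 960 UMIs in Control, 289 CPM (271 to 307), and 529 in SC300, 204 CPM (187 to 222). The log2 ratio was -0.50 (-0.65 to -0.34), short of the 1.5-fold difference used here as the bound of a call. Frzb was detected in 101 of 268 and 45 of 163 cells, 37.7% against 27.6%. The gene was thus high in few cells, and 48 Control and 24 SC300 cells held 8 or more UMIs, up to 58 and 49. Precursor-like cells had 85 and 65 Frzb UMIs, 38.0 and 27.1 CPM, and newly formed oligodendrocyte-like cells had 41 and 39, 28.1 and 24.5 CPM. Their log2 ratios were -0.49 (-0.97 to -0.00) and -0.20 (-0.87 to 0.47). The first turned to 0.09 with thinned cells and the second to 0.24 with every cell weighted alike, and the levels of these neighbours in the order overlapped in both libraries. Frzb was the only member counted in newly formed oligodendrocyte-like cells and passed 1.5-fold in neither direction, against 3.76% of genes lower and 2.87% higher there.

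Dkk3 was highest in ependymal-like cells, the ciliated cells of the ventricle wall, followed by tanycyte-like cells. Astrocyte-like cells came next in Control. In SC300 their level overlapped that of stromal (fibroblast)-like cells, 31.8 CPM (19.9 to 48.2). The ependymal-like level was 181 CPM (164 to 200) from 390 UMIs in Control and 156 CPM (137 to 177) from 236 UMIs in SC300, a log2 ratio of -0.22 (-0.46 to 0.02). The tanycyte-like level was 147 CPM (134 to 160) from 488 UMIs and 105 CPM (93.3 to 119) from 273 UMIs, a log2 ratio of -0.48 (-0.70 to -0.26). In astrocyte-like cells it was 36.8 CPM from 366 UMIs and 26.6 CPM from 291 UMIs, a log2 ratio of -0.46 (-0.69 to -0.24). In these classes Dkk3 was thus lower in SC300, with an interval that reached 0 in ependymal-like cells.

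GABAergic and glutamatergic neuron-like cells held little Dkk3 and stood the other way. GABAergic neuron-like cells had 47 UMIs in Control and 65 in SC300, 6.76 and 10.1 CPM, a log2 ratio of 0.57 (0.01 to 1.15). Glutamatergic neuron-like cells had 27 and 54, 7.48 and 12.9 CPM, a log2 ratio of 0.78 (0.09 to 1.51). Each of these rested on few molecules, and 3 cells held 40.7% and 31.5% of the glutamatergic counts. The remaining neuron-like cells, of neither class, had 17 and 24 UMIs, 12.2 and 13.2 CPM. Their log2 ratio was 0.11 (-0.85 to 1.09).

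Sfrp1 and Fzd2 had nearly level values in the tanycyte-like class. Sfrp1 had 162 UMIs in Control, 48.7 CPM (41.5 to 56.8), and 139 in SC300, 53.7 CPM (45.1 to 63.4), with a log2 ratio of 0.14 (-0.20 to 0.48). Fzd2 had 141 and 119 UMIs, 42.4 CPM and 45.9 CPM, with a log2 ratio of 0.12 (-0.25 to 0.48). Wif1 was near absent from the class, with 9 and 4 UMIs.

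Of the 7 members, 5 reached 50 UMIs over both libraries in tanycyte-like cells and so entered the count. Among these, 1 was at least 1.5-fold lower in SC300 (Sfrp2) and 0 were at least 1.5-fold higher. Of all 8126 genes with that many UMIs in the class, 8.42% were lower and 4.31% were higher by this measure. The median log2 ratio was -0.48 over the 5 members and -0.06 over all these genes. With 5 members, 1 call is few to set against that background. The study had itself shown Sfrp2 as down-regulated in SC300 in its cluster with Kiss1-expressing cells. This call from the same data thus adds no independent support.

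Markers of other cells moved in the same class. The summed level of the 8 astrocyte markers was 2140 CPM in Control and 1665 CPM in SC300, that of the 7 ependymal markers was 2519 and 2123 CPM, and that of the 4 erythroid markers 67.9 and 16.6 CPM, with none of these lists holding a marker at 0 in both libraries. The neuron (581 and 505 CPM) and endothelial (38.5 and 18.5 CPM) lists were also lower in SC300. Other lists were higher in SC300, among them mature oligodendrocyte (148 and 188 CPM), newly formed oligodendrocyte (98.3 and 109 CPM) and mural markers (20.7 and 31.3 CPM). The markers within these lists did not all move together. In the astrocyte list the largest fall was in Aldoc (647 and 341 CPM), while Agt (358 and 364 CPM), Gjb6 and Ntsr2 were higher. In the ependymal list the largest fall was in Rarres2 (313 and 147 CPM), and Cfap126 alone was higher (649 and 732 CPM). In the mural list the largest rise was in Myh11, from 8.12 to 20.5 CPM. Pdgfrb and Vtn were also higher, while Rgs5, Kcnj8, Abcc9 and Higd1b were lower. In the newly formed list the largest rises were in Fyn (29.2 and 34.7 CPM) and Tcf7l2 (58.3 and 61.8 CPM). Bmp4 alone was lower there, as was Mal alone in the mature list. Within the tanycyte list itself Crym was higher in SC300, 2647 against 3788 CPM, and Ppp1r1b was lower, 1048 against 501 CPM. The 6 precursor markers, which label the other class with high Sfrp2, summed to only 28.3 and 30.9 CPM in the class. The part of these shifts in the differences above was not tested.

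To see whether the lower levels belonged to 1 kind of tanycyte, the class was split by whether a cell had a UMI of Col25a1, Scn7a or Adm, markers listed for tanycytes of the median eminence. Only Scn7a was highest in the tanycyte-like class, while Col25a1 was highest in GABAergic neuron-like and Adm in mural-like cells, and their levels in the class ran from 3.09 to 18.1 CPM. Such a UMI was present in 47 Control cells (17.5%) and 37 SC300 cells (22.7%). Sfrp2 was lower in SC300 on both sides of the split. With a marker there were 116 UMIs in Control and 37 in SC300, 169 and 52.1 CPM (log2 ratio -1.70, -2.27 to -1.15). Without one there were 560 and 86, 212 and 45.7 CPM (log2 ratio -2.21, -2.56 to -1.88).

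Frzb followed the markers. With a marker it had 572 and 418 UMIs, 833 CPM (766 to 904) and 589 CPM (534 to 648), a log2 ratio of -0.50 (-0.69 to -0.32). Without one it had 388 and 111 UMIs, 147 CPM (133 to 162) and 59.0 CPM (48.6 to 71.1), a log2 ratio of -1.32 (-1.63 to -1.01). The ratio over the whole class, -0.50, was therefore no larger than that of the marker-positive cells, which formed a larger share of the SC300 class. Among marker-negative cells, 60 of 221 in Control and 15 of 126 in SC300 held Frzb, 27.1% against 11.9%. Cells with a marker were deeper, with a Control median of 14504 UMIs against 9765, so the split also separates cells by depth.

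Dkk3 and Sfrp1 were also higher in the cells with a marker. Dkk3 stood at 224 and 146 CPM with a marker and at 127 and 89.9 CPM without, with log2 ratios of -0.62 (-0.99 to -0.25) and -0.49 (-0.77 to -0.22). Sfrp1 stood at 81.6 and 101 CPM with a marker and at 40.2 and 35.6 CPM without. Its log2 ratios were 0.31 (-0.21 to 0.84) and -0.17 (-0.64 to 0.28). Fzd2 was at 29.1 and 40.8 CPM with a marker and 45.8 and 47.9 CPM without, and all 4 of its intervals overlapped.

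**Figure D3:**
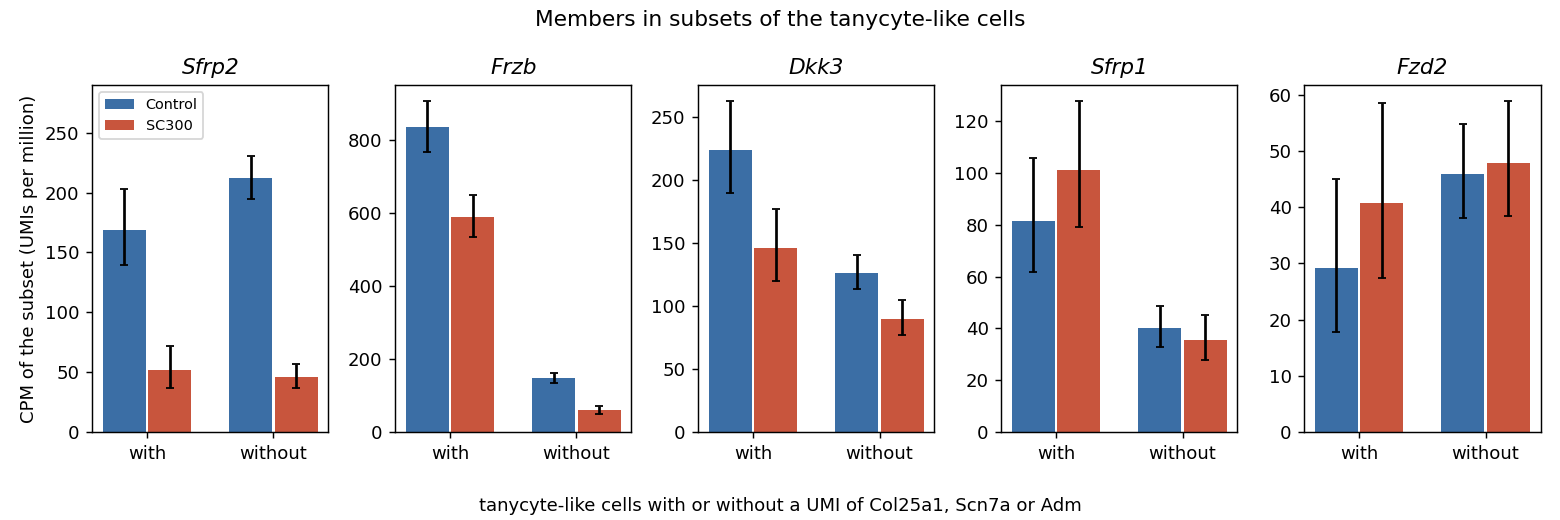
CPM of 5 members in tanycyte-like cells with (47 Control, 37 SC300) or without (221 and 126) a UMI of Col25a1, Scn7a or Adm, with exact 95% Poisson intervals as error bars and a separate scale for each gene. Sfrp2 and Frzb are lower in SC300 in both subsets, and Frzb reaches 833 CPM in Control with a marker against 147 CPM without.

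Sfrp2 and Frzb were read together in single cells. In Control 72 of 268 tanycyte-like cells held both, 124 held Sfrp2 alone, 29 Frzb alone and 43 neither. In SC300 25 of 163 held both, 40 held Sfrp2 alone, 20 Frzb alone and 78 neither. Cells with neither gene thus made up 16.04% of the class in Control and 47.9% in SC300.

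Sfrp1 reached 50 UMIs in 5 classes and was higher in SC300 by 1.5-fold in 3 of them. In astrocyte-like cells it had 94 UMIs in Control, 9.44 CPM (7.63 to 11.6), and 162 in SC300, 14.8 CPM (12.6 to 17.3), a log2 ratio of 0.65 (0.28 to 1.03), which came to 0.57 and short of 1.5-fold with classes from clusters. This was 1 of 3 members counted in the class (Sfrp1, Dkk3, Fzd2), where 3.05% of 10211 genes were higher and 2.37% lower by 1.5-fold. A UMI was present in 81 of 1261 and 141 of 1383 cells, and no cell held more than 3. GABAergic neuron-like cells held 19 and 45 Sfrp1 UMIs, 2.73 against 6.96 CPM (log2 ratio 1.35, 0.55 to 2.21). The cells with a UMI numbered 17 of 258 and 21 of 235, and 3 cells held 35.6% of the SC300 counts. Precursor-like cells held 24 and 37 of its molecules (log2 ratio 0.53, -0.25 to 1.33).

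The highest Sfrp1 level was in stromal (fibroblast)-like cells, the connective tissue cells of meninges and vessels, in the SC300 library. The class held 15 Control and 41 SC300 cells. Sfrp1 had 8 UMIs in 5 Control cells, 34.4 CPM (14.8 to 67.7), and 236 UMIs in 26 SC300 cells, 341 CPM (299 to 388), a log2 ratio of 3.31 (2.31 to 4.54). In SC300 3 cells held 37.3% of the molecules, up to 32 in a cell, and without the 3 highest cells in each library the levels were 10.2 and 235 CPM. With classes from clusters they were 69.6 and 594 CPM, and the log2 ratio ran from 2.47 to 4.52 over the alternatives. In the same class 11.5% of 2757 genes were at least 1.5-fold higher in SC300 and 7% were lower. Dkk3 had 0 UMIs in the 15 Control cells, where the exact upper bounds were 21.8% of cells and 15.8 CPM. It had 22 UMIs in 10 SC300 cells, 31.8 CPM (19.9 to 48.2). With a floor of 3 UMIs set for the Control class, SC300 was 2.47-fold higher. The exact interval of the log2 ratio began at 0.88. How the few Control cells compare with the SC300 cells in kind was not tested.

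**Figure D4:**
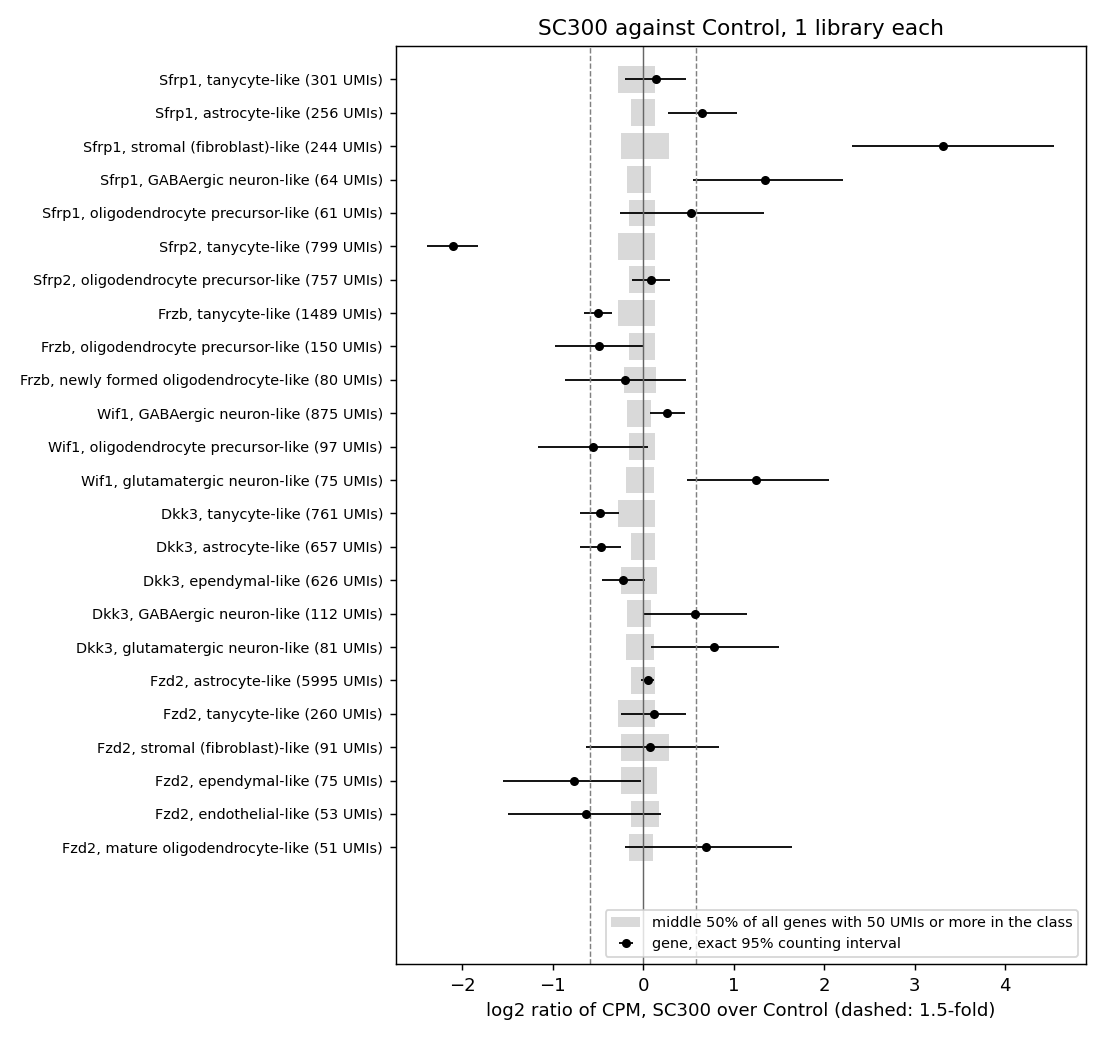
Log2 ratio of CPM, SC300 over Control, for the 24 member and class pairs with at least 50 UMIs, with exact 95% counting intervals. Grey bars span the middle 50% of all genes with that many UMIs in the class. Dashed lines mark 1.5-fold, which 3 pairs pass on the lower side and 6 on the higher side. Of all such genes, 2.18% to 8.42% pass it on the lower side and 2.18% to 11.5% on the higher side, depending on the class.

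Fzd2, the receptor, was an astrocyte-like gene in both libraries, with 86.5% of its UMIs there in Control and 89.4% in SC300. It had 2805 UMIs in Control, 282 CPM (271 to 292), and 3190 in SC300, 292 CPM (282 to 302). The log2 ratio was 0.05 (-0.02 to 0.13), and a UMI was found in 968 of 1261 and 1111 of 1383 cells, 76.8% and 80.3%. This was the most precise ratio of any member, with an interval that ended within 0.13 of 0. Stromal-like cells came next, at 94.5 CPM (59.2 to 143) and 99.8 CPM (77.7 to 126), followed by tanycyte-like cells.

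The other Fzd2 values rested on few molecules. It was called lower in ependymal-like cells, at 53 UMIs in Control and 22 in SC300 (log2 ratio -0.76, -1.55 to -0.02), where 5.17% of genes were lower and 3.31% higher, and the Control cells were deeper, with a median of 27045 UMIs against 14851. Endothelial-like cells held 31 and 22 molecules of it, for a log2 ratio of -0.63 (-1.49 to 0.20), where 3.06% of genes were lower and 4.16% higher. Mature oligodendrocyte-like cells held 16 and 35 (log2 ratio 0.69, -0.20 to 1.65), where 2.54% were higher and 2.84% lower, and 3 cells held 75% and 60% of the counts. The intervals of the last pair of classes held 0. With cells thinned to 2000 UMIs, too few UMIs were left in these classes for a Fzd2 ratio.

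Wif1 was highest in GABAergic neuron-like cells. In GABAergic neuron-like cells it had 413 UMIs in Control, 59.4 CPM (53.8 to 65.4), and 462 in SC300, 71.4 CPM (65.1 to 78.3), a log2 ratio of 0.27 (0.07 to 0.46). In that class 3.19% of genes were higher and 3.58% lower by 1.5-fold, and of 3 members counted there 1, Sfrp1, was higher. Precursor-like cells followed, with 56 and 41 UMIs, 25.02 and 17.1 CPM, a log2 ratio of -0.55 (-1.17 to 0.06). None of the 4 members counted in precursor-like cells passed 1.5-fold in either direction, against 2.18% of genes lower and 2.18% higher there. Glutamatergic neuron-like cells had 20 and 55 Wif1 UMIs, 5.54 and 13.1 CPM, a log2 ratio of 1.24 (0.48 to 2.06), and both members counted in that class (Wif1, Dkk3) were higher, where 3.01% of genes were higher and 3.59% lower. With every cell weighted alike, the glutamatergic ratio of Wif1 turned to -1.001. The Control mean there includes a cell with 1 Wif1 UMI in a total of only 563 UMIs. With thinned cells a Wif1 UMI was left in 1 cell of each library, and a Dkk3 UMI in 3 Control and 2 SC300 cells. These were too few for a ratio.

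The GABAergic counts of Wif1 came from a handful of cells. A UMI was found in 41 of 258 and 43 of 235 cells, and 3 cells held 58.8% and 62.1% of the molecules. The cells concerned, picked out after their values had been seen, were those with at least 10 UMIs of Hdc, the enzyme that makes histamine. There were 8 such neuron-like cells in Control and 6 in SC300, all of them in the GABAergic gate and none called a doublet.

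All of these Hdc-positive neurons held Wif1. Their counts ran from 3 to 108 with a median of 46.5 in Control, and from 4 to 121 with a median of 63.5 in SC300. They held 359 of the neuronal Wif1 UMIs in Control (79.6%) and 396 in SC300 (72.8%). Their Wif1 level was 587 CPM (528 to 651) and 655 CPM (592 to 723), against 8.11 CPM (6.54 to 9.94) and 12.5 CPM (10.5 to 14.6) in all other neuron-like cells. Those other cells stood below precursor-like cells, at 25.02 CPM (18.9 to 32.5) and 17.1 CPM (12.3 to 23.2), with intervals that overlapped in SC300. All comparisons with the Hdc set rest on few cells. All of the Hdc-positive neurons also had UMIs of Slc18a2, the vesicular monoamine transporter, of Maob, a monoamine oxidase, and of the histamine receptor gene Hrh3. Hrh3 was also found in 222 of 468 Control and 204 of 468 SC300 neuron-like cells outside the set. There Maob was in 76 and 70 cells and Slc18a2 in 30 and 24. The Hrh3 level was 280 and 428 CPM in the set against 45.6 and 37.0 CPM outside it. Lef1, a transcription factor of the Wnt pathway, was present in 8 of 8 and 6 of 6, at 106 and 97.6 CPM against 6.87 and 4.46 CPM in the other neuron-like cells. The Hdc-positive neurons were deep, with median totals of 76741 and 101490 UMIs against 23220 and 22031, and Hdc is also on the ependymal marker list used for the classes. No neuron-like cell outside the set held more than 11 Wif1 UMIs in Control or 10 in SC300.

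**Figure D5:**
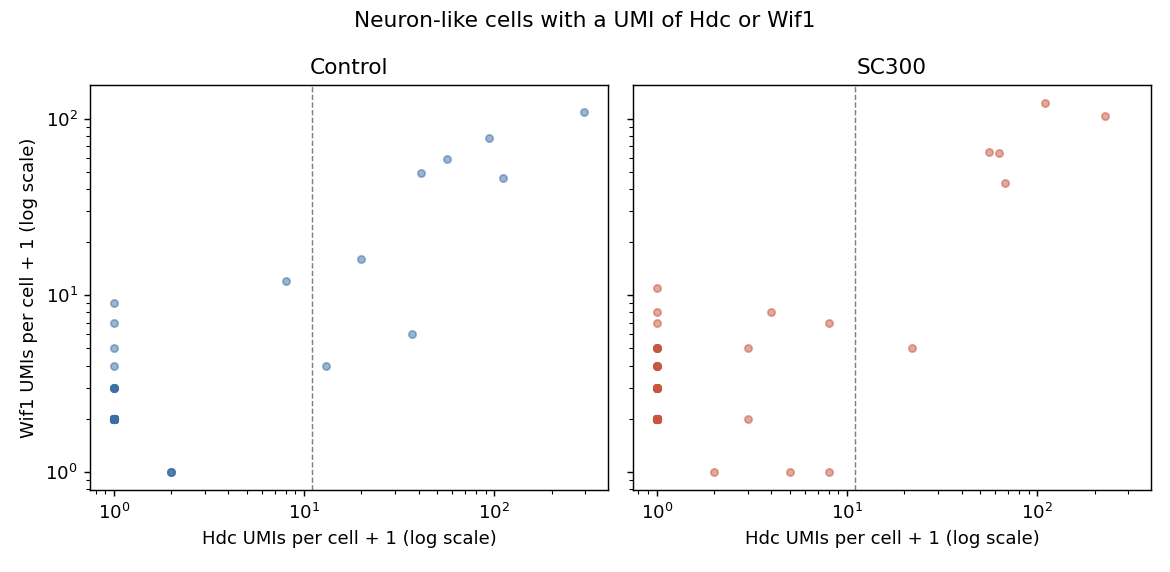
UMIs of Hdc and Wif1, each plus 1 on log scales, in every neuron-like cell with a UMI of either gene, for Control on the left and SC300 on the right. The 8 and 6 cells to the right of the dashed line at 10 Hdc UMIs include every cell with more than 11 Wif1 UMIs.

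Over 105 pairs of member and class, 24 had at least 50 UMIs, of which 3 were lower and 6 higher in SC300 by 1.5-fold or more. Of all genes with that many UMIs, 2.18% to 8.42% were lower and 2.18% to 11.5% higher, depending on the class. With so few pairs in a class, the counts are few to set against those shares. The lower pairs were Sfrp2 in tanycyte-like cells and Fzd2 in ependymal-like and endothelial-like cells. The higher pairs were Sfrp1 in astrocyte-like, GABAergic neuron-like and stromal-like cells, Wif1 and Dkk3 in glutamatergic neuron-like cells, and Fzd2 in mature oligodendrocyte-like cells. Classes share a library, so these pairs are not repeats of each other.

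The rest of the pathway was read from 80 further genes, of which 78 were measured and 25 reached 50 UMIs in tanycyte-like cells. Of these, 3 were lower by at least 1.5-fold and 0 were higher, where 8.42% and 4.31% of all genes of the class were, with a median log2 ratio of -0.06, which was also -0.06 over all genes of the class. The lower genes were the ligands Wnt5a (65 and 28 UMIs, log2 ratio -0.85, -1.55 to -0.19) and Wnt7b (52 and 18, -1.17, -2.03 to -0.37) and the receptor Fzd1 (104 and 41, -0.98, -1.54 to -0.45). Wnt4, the next ligand by level, had 18 and 12.

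The other receptors and intracellular genes with at least 50 UMIs stayed within 1.5-fold. The receptor Ryk had 94 and 80 UMIs and a log2 ratio of 0.13. Csnk1a1, a kinase of the complex that marks beta-catenin for degradation, had 875 and 604 UMIs and a ratio of -0.17, Gsk3b, another of its kinases, 173 and 134 and -0.01, and the transcription factor Tcf7l2 194 and 160 and 0.08. Among common targets of the pathway, the log2 ratio of Axin2 was 0.29 (-0.26 to 0.83) from 60 and 57 UMIs. That of Nkd1 was -0.46 (-0.76 to -0.16) from 263 and 149, and that of Ccnd1 was -0.06 (-0.60 to 0.47) from 71 and 53. Of these targets only Nkd1 had an interval that left out 0. Apcdd1, on the same list but under 50 UMIs, had 4 and 19 (log2 ratio 2.61, 1.02 to 4.62). Tnfrsf19, a membrane receptor, had 315 and 289 UMIs and a log2 ratio of 0.24, and Lgr4, a receptor for R-spondins, 85 and 63 and -0.07. Porcn, the enzyme that attaches the lipid to Wnt ligands, had 96 and 63 UMIs and a ratio of -0.25.

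The remaining genes that headed their lists were at low counts in tanycyte-like cells. The Wnt carrier Wls had 27 and 22 UMIs, the secreted esterase Notum 22 and 26, and the Frizzled ligand Ndp 8 and 17. Kremen1, a receptor for Dickkopf proteins, had 14 and 14, Kremen2 and the ligase Rnf43 had 0 in both libraries, and Lgr6 had 1 and 2.

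The genes whose levels ran most like each member were taken from 10506 genes over 30 columns, 15 classes in each of 2 libraries, by Pearson's r of log2(CPM + 1). These r describe shared classes and depth and carry no p. For Sfrp2 they were Rflna (0.77), Megf11 (0.75) and Smoc1 (0.74), and for Frzb they were Smim11 (0.78), Crym (0.76) and Tspan11 (0.76), where Crym itself was used to gate the tanycyte-like class. Sfrp2 and Frzb ran together at 0.74. For Dkk3 they were Rfx2, Ccdc113 and Rbm24, each at 0.93, of which Rfx2 is a regulator of ciliary genes. For Fzd2 they were Cyp7b1 (0.93), Gja1 (0.90), a gap junction gene on the astrocyte list, and Slc7a11 (0.90). For Sfrp1 they were Mfap2 (0.82), Pknox2 (0.81) and Col4a6 (0.80), and for Wif1 AC095693.1 (0.90), Nexmif (0.90) and Crmp1 (0.90).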

How the data were processed

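Single-cell libraries were made with 10x Genomics 3′ chemistry (version 3) from collagenase-dissociated tissue. The deposited values are raw UMI counts per gene and barcode, which the authors made with Cell Ranger (3.0.1 per the submitters' processing notes), aligning reads to the Ensembl 96 rat transcriptome and calling cells. A merging step is named in the methods and its effect on these counts is not stated there. The study's methods and series description give differing cell counts, and the barcodes kept here lie between them. The members and gene lists were chosen with earlier results of these data known.

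Each marker of a list was scaled to its 99.5th percentile, and a barcode took the class with the highest mean score if that score was at least 0.1 and 1.25 times the next. Tanycyte-like cells were separated from ependymal-like cells by at least 100 CPM of Crym, and ependymal-like cells needed a score of 0.4. GABAergic cells had at least 3 UMIs of Slc32a1, Gad1 and Gad2 and none of Slc17a6, and glutamatergic cells had Slc17a6 and fewer of the others. The gate was settled after marker values, but not member values, had been seen. Barcodes called doublets by Scrublet (70 and 73) were kept, and left out in an alternative.

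UMIs were summed per class and library and scaled to CPM, with exact Poisson intervals for CPM, Clopper-Pearson intervals for shares and conditional binomial intervals for ratios, at 95%. UMIs of a library are not independent animals, so intervals and the floor of 3 UMIs cover counting error only. A pair was called at 1.5-fold among genes with at least 50 UMIs over both libraries. All 7 members were computed in every class, and values under 50 UMIs are given only in part. Some of these had intervals that left out 0, in both directions. Fzd2 had 22 and 10 UMIs in mural-like cells (log2 ratio -1.65, -2.89 to -0.51). Frzb had 4 and 14 in GABAergic neuron-like cells (1.91, 0.24 to 3.97). Also reported were the called pathway genes and the 3 highest per pathway list in tanycyte-like cells, and the 3 genes most like each member. Dio2, Foxj1, Znrf3 and Axin1 were not analysed here. Calculations used Python 3.11.15, scipy 1.17.1 and scanpy 1.11.5 and were tested on simulated data.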

Additional observations from a re-analysis of the deposited data

Results flagged for a closer look

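Among pairs with at least 50 UMIs, only Dkk3 had ratios in opposite directions in different classes, with intervals that left out 0 on both sides. With pairs under 50 UMIs, Sfrp2, Frzb and Sfrp1 showed this as well. Sfrp2 was at 2.05 in newly formed oligodendrocyte-like cells and Frzb at 1.91 in GABAergic neuron-like cells. Sfrp1 was at -1.65 (-3.51 to -0.05) in neuron-like cells of neither the GABAergic nor the glutamatergic class. For Dkk3 the pattern was as follows. The log2 ratio of SC300 over Control was -0.48 in tanycyte-like and -0.46 in astrocyte-like cells. It was 0.57, short of 1.5-fold, in GABAergic neuron-like and 0.78 in glutamatergic neuron-like cells. In the remaining neuron-like cells, with under 50 UMIs, it was 0.11 (-0.85 to 1.09). With thinned cells the glutamatergic ratio could not be formed, since too few UMIs were left. A UMI was then found in 3 of 129 Control cells (2.33%) and 2 of 128 SC300 cells (1.56%), against 13.3% and 25.4% before thinning. Over the other settings that ratio lay between 0.75 and 1.06. The difference between the classes was not tested, since each group had 1 library.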

How the results depend on the processing

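No paired analysis was possible because each group had 1 library. The alternatives covered 14 settings, and of the ratios recomputed under them 10 of 242 changed sign, 2 of them called ratios (Wif1 and Fzd2 below) and 8 not called. The tanycyte-like ratio of Sfrp2 lay between -2.25 and -1.58, Frzb between -0.65 and -0.36, and Dkk3 between -0.73 and -0.41. With cells thinned to 2000 UMIs, the ratio was -1.58 for Sfrp2 and -0.27 for Sfrp1, and 0.09 for Frzb in precursor-like cells. With every cell weighted alike, Dkk3 was at -0.73 in tanycyte-like cells, and 2 members were called lower there in place of 1 (Dkk3 joined Sfrp2). Wif1 in glutamatergic neuron-like cells was then at -1.001, in a mean that includes the Control cell of 563 UMIs. Leaving out the 3 cells with the most UMIs also gave 2 lower members (Frzb joined). With classes from clusters, Fzd2 in mature oligodendrocyte-like cells was at -0.14. The 9 called pairs became 17 with a minimum of 20 UMIs, 3 with 100 UMIs and 4 with a 2-fold bound, by construction. At unchanged bounds, thinned cells kept 4 of the 9, in part because some ratios could not be formed. Fzd2 in endothelial-like cells also lost its call with a stricter gate or at least 500 detected genes. Fzd2 in ependymal-like cells lost it with classes from clusters or at most 20% mitochondrial UMIs. Both lost it with every cell weighted alike. A tanycyte list without Ppp1r1b, chosen after the data were seen, gave the same 9 pairs and -2.07 for Sfrp2. Scaling by the median of ratios moved all ratios by over 0.1 only in border-associated macrophage-like (-0.10) and erythroid-like (-0.24) cells, in which no member was counted. Values with under 50 UMIs, and Sfrp5 in every class, are limited by their counts.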

Other observations

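In GABAergic neuron-like cells 31 of the further pathway genes reached 50 UMIs, and 6 were at least 1.5-fold higher in SC300 and 1 was lower, where 3.19% and 3.58% of all genes were. These genes were named after their values were seen. The ligands Wnt4 (150 UMIs in Control and 230 in SC300, log2 ratio 0.72, 0.42 to 1.03) and Wnt5a (17 and 58, 1.88, 1.08 to 2.75) were higher. The receptor Fzd9 (34 and 97, 1.62, 1.04 to 2.23) and the R-spondins Rspo1 (26 and 85, 1.81, 1.17 to 2.51) and Rspo3 (21 and 39, 1.00, 0.20 to 1.84), which strengthen Wnt signalling, were also higher. Myc, a common target, had 24 and 36 UMIs and an interval that held 0. Dkk2, a secreted Dickkopf, was lower (71 and 29, -1.19, -1.86 to -0.55). Wnt5a thus stood lower in tanycyte-like and higher in GABAergic neuron-like cells of the same libraries, and that difference was not tested. Some of these rises were not particular to GABAergic neuron-like cells. Rspo1 had 13 and 58 UMIs in glutamatergic neuron-like cells (log2 ratio 1.94, 1.06 to 2.93). Wnt4 had 24 and 118 in the remaining neuron-like cells (1.91, 1.26 to 2.60). Whether a few cells held most of these counts was not tested.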
